A study of Mus musculus with 3 samples.

Results

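The genes described here encode the receptors through which serotonin, noradrenaline and adrenaline, histamine and acetylcholine act on cells of the nucleus accumbens. They were taken by symbol: every feature beginning Htr, Chrm, Chrna, Chrnb, Chrnd, Chrne, Chrng, Adra, Adrb or Hrh, followed by a number where the family is numbered. The rule found 49 of 28001 features: 14 serotonin, 17 nicotinic, 5 muscarinic, 6 alpha adrenergic, 3 beta adrenergic and 4 histamine genes. Among the nicotinic names, Chrna1os is an antisense RNA and not a receptor. The single cells came from Thy1::ChR2 mice, in which the Thy1 promoter drives channelrhodopsin in a subset of projection neurons. All 3 samples form 1 group, labelled with FLiCRE during optogenetic stimulation (ChR2) in the nucleus accumbens and taken from a 400 um coronal dissection. FLiCRE is a reporter system that turns calcium coinciding with light into transcription of a reporter, here read as the mCherry feature. The labels give no age, sex or number of animals, and the series has no unstimulated group, so every comparison lies between cell classes of the same libraries.

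Most of these receptors are G protein-coupled. Gi-coupled receptors lower cyclic AMP and often sit on axon terminals, where they reduce transmitter release; Gq-coupled receptors raise intracellular calcium; Gs-coupled receptors raise cyclic AMP. The nicotinic receptors and the serotonin receptor built from Htr3a and Htr3b are ion channels. The nucleus accumbens receives serotonin from the raphe, noradrenaline from the brainstem and histamine from the hypothalamus, while its acetylcholine comes largely from local interneurons. Its output cells are spiny projection neurons, which carry either the D1 or the D2 dopamine receptor.

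The 3 libraries, told apart by barcode suffix, kept 2350, 6079 and 1862 cells, whose median depth was 992.5, 2123 and 2705 UMIs; the numbers 1 to 3 are only names. A UMI is a molecular tag that counts 1 captured RNA molecule once. Markers placed 9402 of the 10291 kept cells in 17 classes of named neurons and other cells or in the remaining neurons, and left 889 (8.64%) without a class. No receptor gene was a marker. The D1-like class held 84, 1176 and 214 cells in libraries 1 to 3 and the D2-like class 188, 823 and 228. The D1-like cells were led by Pdyn, Tac1 and Drd1 and the D2-like cells by Adora2a, Gpr6 and Penk. The classes were not clean. Summed D2-like markers made 418, 676 and 1668 counts per 1000000 UMIs (CPM) in D1-like cells, against 9037, 8527 and 10830 in D2-like cells. Summed D1-like markers made 218, 408.5 and 186.5 CPM in D2-like cells, against 4625, 4278 and 3780 in D1-like cells. Exactly 2 own markers, the minimum, were found in 789 of 1474 D1-like and 663 of 1239 D2-like cells. The 292 glutamatergic cells were led by Slc17a7, Nrn1 and Tbr1, genes known from cortical projection neurons rather than from the accumbens itself. Neuronal RNA in oligodendrocytes differed between libraries: Snap25, a neuronal gene, was found there at 1.51%, 11.7% and 2.26% of its level in neurons. The parts of free RNA and of doublets (barcodes that hold more than 1 cell) in these values were not tested. Pairs of libraries shared 13 (1 and 2), 7 (1 and 3) and 22 (2 and 3) barcode sequences.

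Receptor RNA was sparse. All 49 genes together gave 11344 UMIs in the gated cells, or 479 CPM (counts per 1000000 UMIs). Of the 49, 42 genes had at least 1 UMI and 13 had at least 100. A small group made up most of the signal: Htr2c (2018 UMIs), Adra2c (1678), Chrm1 (1657), Hrh3 (1584) and Htr1b (1539) held 74.7% of it. These totals count tagged 3′ ends, which are captured unequally between genes, so they describe detection and are not ranked as amounts of RNA. Gi-coupled receptors gave 50.7% of the receptor UMIs, Gq-coupled 36.7%, Gs-coupled 6.70% and ion channels 5.47%. Serotonin receptors alone gave 40.2%. Most positive cells held a single UMI of a gene (70.4% of those positive for Htr2c, 94.1% of those positive for Chrnb2), and Htr2c reached 9 UMIs in its highest cell.

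When each cell was thinned to 1000 UMIs, at least 1 receptor gene was detected in 55.6 ± 5.93% of D1-like cells (SD, n = 3 libraries), 62.0 ± 7.65% of D2-like cells and 49.5 ± 8.63% of glutamatergic cells. The same share was 5.25 ± 3.76% in oligodendrocytes, which are not known for most of these genes, 11.3 ± 3.39% in astrocytes and 17.1 ± 11.7% in microglia. Thinning left out the shallower cells, 27 of 1474 D1-like and 83 of 1239 D2-like cells among them. It also left out 54, 139 and 48 of the 109, 273 and 101 microglia of libraries 1 to 3. Of 475, 669 and 338 oligodendrocytes it left out 263, 81 and 13, and of 323, 554 and 203 astrocytes 83, 85 and 23. The thinned shares therefore describe the deeper cells of each class, above all in microglia. Library 2 had the highest oligodendrocyte share (9.52%, against 3.77% and 2.46%) and also the most Snap25 in oligodendrocytes relative to neurons. The parts of free RNA and of doublets in that share were not tested.

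**Figure D1:**
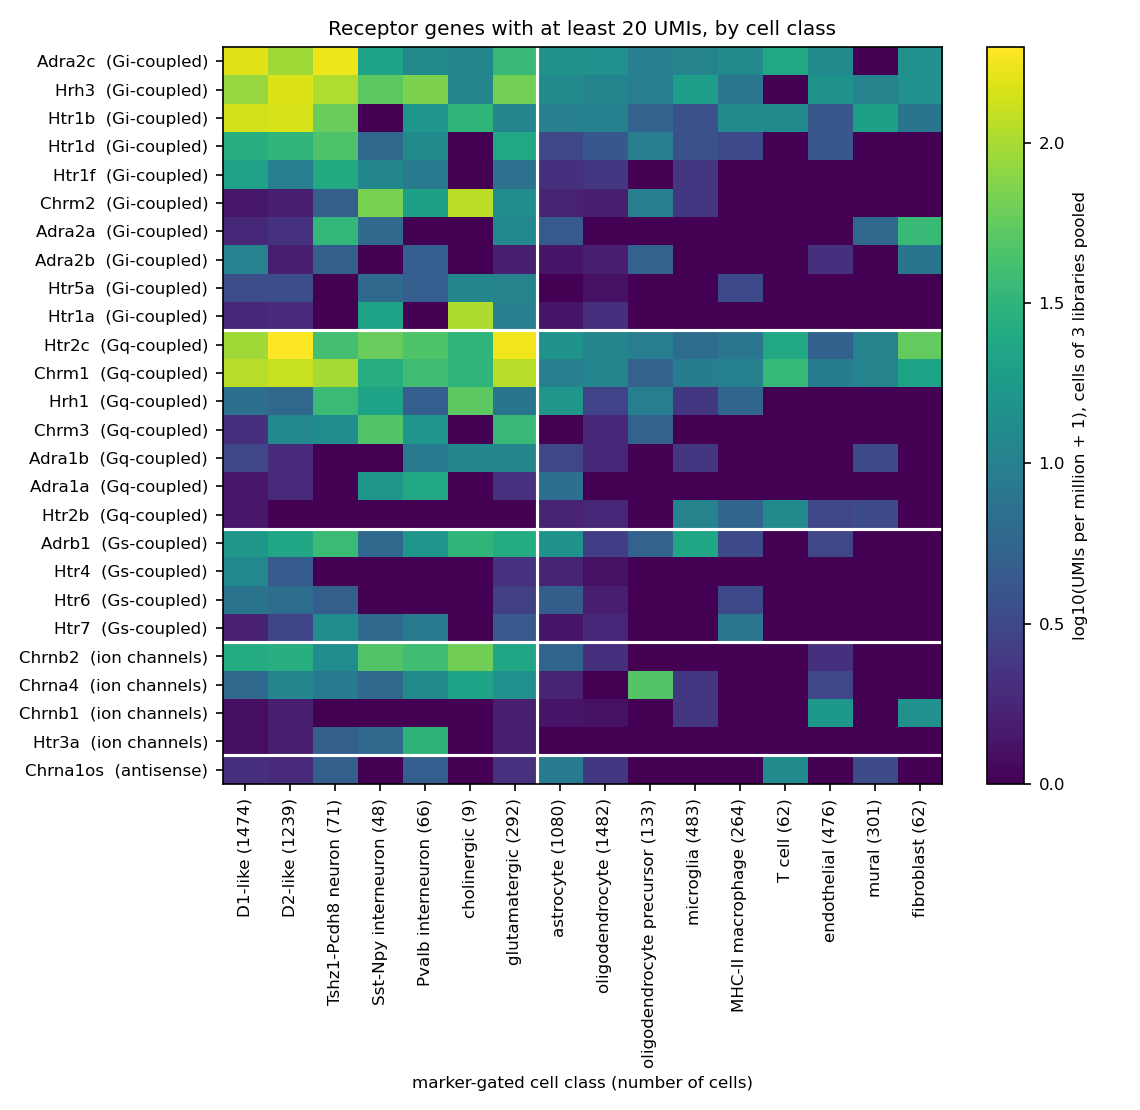
Heat map of receptor genes with at least 20 UMIs (rows, grouped by coupling) in 16 marker-gated cell classes (columns, with the number of cells); colour is log10 of (CPM + 1), with the cells of 3 libraries pooled, and the vertical line separates neurons from other cells. Adra2c, Hrh3, Htr1b, Htr2c and Chrm1 are bright across the spiny neuron columns.

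Neurons were first compared with all other gated cells. UMI counts were summed per library and class and tested over all genes with edgeR's quasi-likelihood test, with the library as block; a call is a Benjamini-Hochberg adjusted p under 0.05. CPM is given within each class and library. In this comparison 15 of the 49 receptor genes passed the filter on low counts and 14 were called, 13 of them higher in neurons. Neurons and other cells differ broadly, with 66.3% of 12639 genes called (31.4% higher in neurons), so calls are common here. The median log2 difference of the 15 was 3.15, beside -0.06 over all genes. They passed the filter partly through the neurons in which they are high, so that median is a description. Every one of the 15 had neuronal and other values that did not overlap between libraries, Hrh1 included, which was not called. The share of all genes without overlap was not counted, so this too is a description. Without the filter 42 receptor genes were tested and 21 were called, 18 of them higher, beside 50.5% of 18928 genes (22.9% higher, 27.6% lower).

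Among the Gi-coupled receptors, Adra2c, an alpha-2 adrenergic receptor, measured 106, 112 and 108 CPM in neurons of libraries 1 to 3 and 8.35, 18.8 and 4.56 CPM in other cells. Its neuronal level was the steadiest of the abundant genes, and its level outside neurons was highest in library 2. The difference was 3.04 on the log2 scale (SE 0.338, adjusted p = 0.000112 by edgeR). Adra2c had a UMI in 11.97%, 25.7% and 29.3% of neurons and in 1.26%, 4.33% and 2.37% of oligodendrocytes, at median depths of 1103, 2551 and 2634 UMIs in neurons and 950, 2138 and 4128.5 in oligodendrocytes. The gene lies at chr5:35278319-35281763 on the plus strand (GENCODE M21 model, GRCm38).

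Hrh3, the histamine autoreceptor and heteroreceptor, measured 340, 66.9 and 159 CPM in neurons and 17.9, 10.3 and 8.79 CPM in other cells. The groups did not overlap, but neurons themselves varied widely between libraries, with library 1 highest and library 2 lowest. The same held in D1-like, D2-like and glutamatergic cells, whose values follow. The log2 difference between neurons and other cells was 3.23 (SE 0.288, adjusted p = 4.53e-05 by edgeR).

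Htr1b, a serotonin autoreceptor and terminal heteroreceptor, measured 65.8, 110 and 90.9 CPM in neurons and 2.98, 13.6 and 3.58 CPM in other cells, a log2 difference of 3.43 (SE 0.315, adjusted p = 5.06e-05 by edgeR). The related Htr1d and Htr1f had fewer UMIs and were also higher in neurons. Htr1d measured 24.5, 27.9 and 25.3 CPM in neurons against 0, 4.61 and 1.30 CPM outside them (3.15, adjusted p = 0.000630 by edgeR), and Htr1f 7.81, 14.2 and 16.6 CPM against 0, 1.88 and 0 CPM (3.63, adjusted p = 0.000746 by edgeR). Outside neurons, 22 of the 26 Htr1d UMIs and all 9 Htr1f UMIs came from library 2, the library with the most Snap25 in oligodendrocytes relative to neurons.

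Among the Gq-coupled receptors, Htr2c measured 193, 126.97 and 146 CPM in neurons and 2.98, 18.01 and 4.56 CPM in other cells (log2 difference 3.83, SE 0.467, adjusted p = 0.000178 by edgeR). It had a UMI in 19.3%, 25.7% and 28.8% of neurons and in 0.421%, 3.74% and 1.48% of oligodendrocytes. Chrm1, the M1 muscarinic receptor, measured 175, 95.7 and 141 CPM against 4.17, 13.8 and 5.86 CPM (3.60, adjusted p = 0.000102 by edgeR). Chrm3, the M3 muscarinic receptor, had 156 of its 160 UMIs in neurons, at 14.5, 8.003 and 19.8 CPM against 0, 0.837 and 0 CPM (4.45, adjusted p = 0.000391 by edgeR). Adra1b, an alpha-1 adrenergic receptor, measured 3.35, 3.46 and 3.52 CPM against 0.596, 1.47 and 0.977 CPM and passed narrowly (1.202, adjusted p = 0.0489 by edgeR), a call lost in 7 alternatives, among them without library 1 (adjusted p = 0.137) and without library 3 (adjusted p = 0.169). Hrh1, the H1 histamine receptor, measured 15.6, 7.81 and 10.6 CPM in neurons and 5.96, 5.65 and 6.51 CPM in other cells, a difference of 0.35 that was not called (SE 0.286, adjusted p = 0.302 by edgeR).

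Among the Gs-coupled receptors, Adrb1, the beta-1 adrenergic receptor, measured 19.0, 16.9 and 25.3 CPM in neurons against 2.38, 5.86 and 11.4 CPM (1.22, adjusted p = 0.00788 by edgeR). Htr6, a serotonin receptor known for its place in the striatum, measured 4.46, 4.64 and 4.80 CPM against 1.19, 2.09 and 0.651 CPM (1.32, adjusted p = 0.0339 by edgeR; 0.0582 without library 1, 0.180 without library 3 and 0.160 by DESeq2). Of the channel subunits, Chrnb2 measured 34.6, 26.3 and 26.9 CPM against 1.19, 2.51 and 1.30 CPM (3.55, adjusted p = 4.07e-05 by edgeR), and Chrna4, with which it forms the main high-affinity nicotinic receptor of brain, 21.2, 6.72 and 8.002 CPM against 0.596, 1.67 and 2.28 CPM (2.07, adjusted p = 0.00533 by edgeR). In 10 genes of the set the gene model overlaps an exon of a gene on the opposite strand. Chrnb2, Hrh3, Htr1b, Chrm1, Chrm2 and Hrh2 are among them. Whether the counting used strand is not given in the sources used here. Reads of the partner may therefore be among the counts of these genes, which was not tested.

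**Figure D2:**
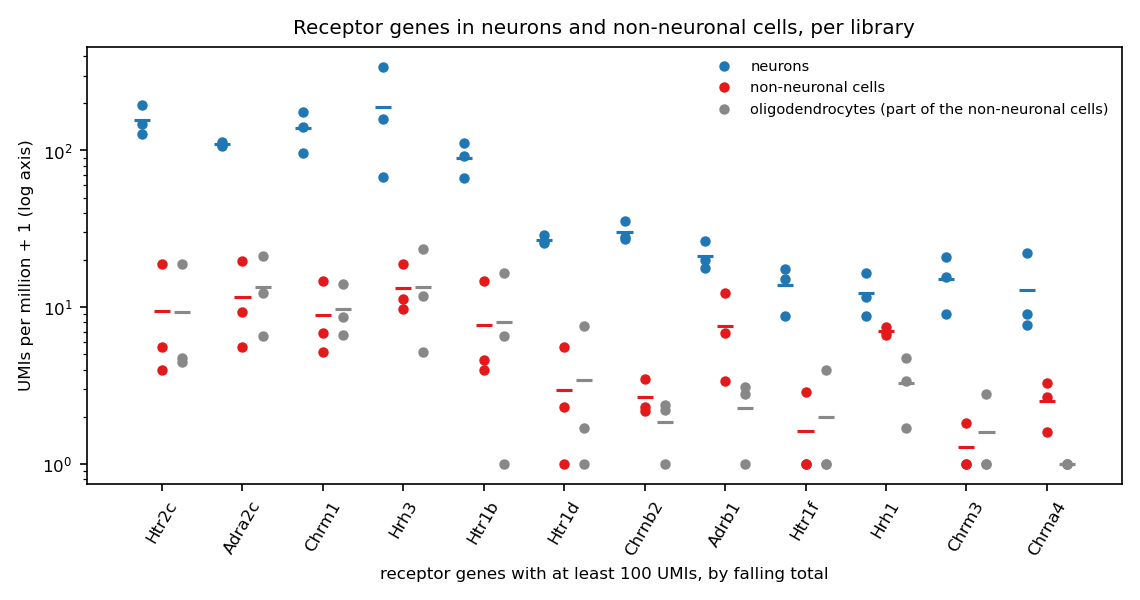
CPM plus 1 (log axis) of 12 receptor genes with at least 100 UMIs, in neurons, in non-neuronal cells and in oligodendrocytes; each point is 1 of 3 libraries and each bar their mean. In all 12 genes the 3 neuronal points lie above the 3 non-neuronal points, and the share of all genes for which this holds was not counted.

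The D1-like and D2-like spiny neurons were compared next, as the main output classes of the accumbens. Here 8 receptor genes passed the filter and 3 were called: Adra2c was higher in D1-like cells, and Htr2c and Hrh3 were higher in D2-like cells. Over all 8715 genes 3.04% were called, 1.63% higher in D1-like and 1.41% higher in D2-like cells. The median log2 difference of the 8 was -0.18, beside 0.0033 over all genes.

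Htr2c measured 137, 84.4 and 121 CPM in D1-like cells and 285, 183 and 223 CPM in D2-like cells. Every D2-like value lay above every D1-like value, and the ratio pointed the same way in 3 of 3 libraries. The log2 difference, D1-like minus D2-like, was -1.05 (SE 0.113, adjusted p = 9.99e-14 by edgeR). Thinned to 1000 UMIs, 11.8%, 7.37% and 12.7% of D1-like cells and 22.8%, 14.7% and 20% of D2-like cells had an Htr2c UMI, against 0.472%, 1.19% and 0% of oligodendrocytes. Without thinning the shares were 15.5%, 20.9% and 28.5% of D1-like cells and 29.3%, 37.7% and 38.6% of D2-like cells. Htr2c lies at chrX:146962513-147197277 on the plus strand.

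Adra2c measured 169, 153 and 170 CPM in D1-like cells and 63.0, 97.6 and 86.3 CPM in D2-like cells. Again the groups did not overlap, in the opposite direction. The log2 difference was 0.78 (SE 0.122, adjusted p = 3.36e-07 by edgeR). After thinning, 14.7%, 15.8% and 15.6% of D1-like cells and 7.87%, 10.3% and 9.09% of D2-like cells had an Adra2c UMI, against 0.943%, 1.87% and 0% of oligodendrocytes.

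Hrh3 measured 306, 65.3 and 148 CPM in D1-like cells and 478, 91.7 and 246 CPM in D2-like cells. The groups overlapped, with wide spread between libraries, and D2-like cells were higher within each of the 3 libraries. The log2 difference was -0.61 (SE 0.114, adjusted p = 3.83e-05 by edgeR). Hrh3 lies at chr2:180099465-180104488 on the minus strand and overlaps an exon of Gm17180 on the other strand.

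The other 5 tested genes were not called. The closest was Adrb1 (-0.52, SE 0.257, adjusted p = 0.436 by edgeR), with 24.1, 14.9 and 15.97 CPM in D1-like and 16.8, 21.3 and 26.4 CPM in D2-like cells. Htr1b measured 96.5, 142 and 129 CPM against 105, 138 and 170 CPM, and Chrm1 225, 99.9 and 147 CPM against 160, 108 and 178 CPM. Both differed by -0.11 (SE 0.116 and 0.118) with overlapping groups, which does not show equal levels. Htr1d differed by -0.25 (SE 0.212) and Chrnb2 by -0.07 (SE 0.222).

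Without library 3, and likewise when the library was not used as block, no receptor gene was called, although all 3 kept their direction. The share of all genes called was not counted in those settings. The lack of calls there therefore cannot separate a loss in the receptor genes from a loss over all genes. Over 12 alternatives the adjusted p of Htr2c ranged from 3.00e-18 to 0.244 (edgeR, or DESeq2 in 1 alternative). That of Adra2c ranged from 1.75e-08 to 0.537 and that of Hrh3 from 1.00e-05 to 0.9995 by the same tests. Hrh3 was also not called by DESeq2 (adjusted p = 0.0634) and with a stricter gate (adjusted p = 0.481 by edgeR).

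Without the filter on low counts, 39 receptor genes could be tested and 6 were called, beside 1.05% of all 16840 genes (0.582% higher and 0.463% lower in D1-like cells). The 3 additional genes are named because they passed there, after their values were seen. Adra2b, another alpha-2 adrenergic receptor, had 1, 37 and 7 UMIs in D1-like cells (8.04, 9.85 and 7.99 CPM) and 0, 1 and 1 in D2-like cells (0, 0.395 and 1.39 CPM). Its 3 D1-like values were close to each other and all above the D2-like values (log2 difference 3.81, adjusted p = 0.00931 by edgeR without the filter). Chrm3 had 0, 5 and 0 UMIs in D1-like cells and 1, 29 and 8 in D2-like cells, or 0, 1.33 and 0 CPM against 4.20, 11.5 and 11.1 CPM (-3.33, adjusted p = 0.00931 by edgeR without the filter). The 5 D1-like UMIs all came from library 2. Htr1f measured 8.04, 19.4 and 22.8 CPM in D1-like and 4.20, 9.09 and 8.35 CPM in D2-like cells, with overlapping groups (1.15, adjusted p = 0.0450 by edgeR without the filter). In library 1, with 84 D1-like cells, Adra2b and Htr1f rest on 1 UMI each. Htr4, a Gs-coupled serotonin receptor, had 1, 46 and 5 UMIs in D1-like and 0, 10 and 2 in D2-like cells (8.04, 12.3 and 5.70 against 0, 3.95 and 2.78 CPM) and did not pass (1.57, adjusted p = 0.120 by edgeR without the filter).

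**Figure D3:**
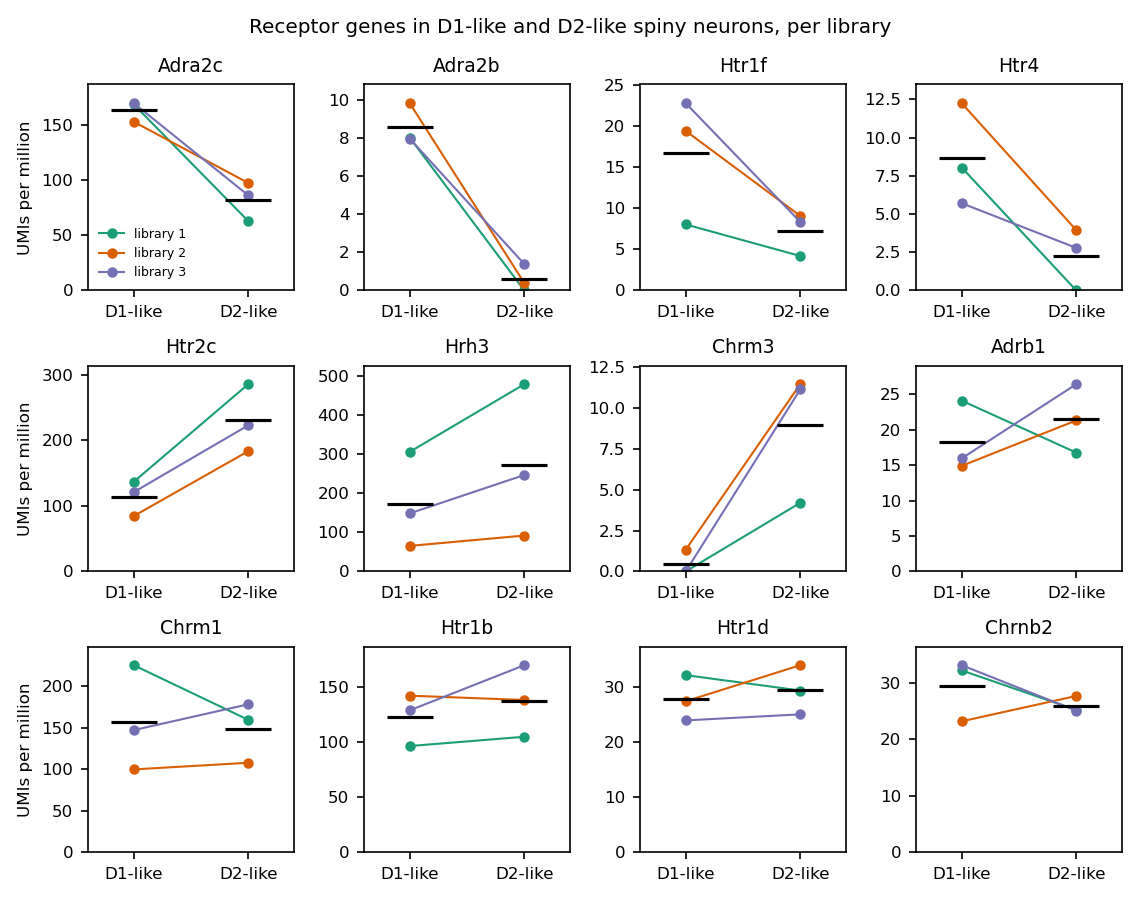
CPM of 12 receptor genes in D1-like and D2-like spiny neurons; each coloured line joins the 2 classes of 1 library, black bars are means of 3 libraries and each axis starts at 0 with its own scale. Lines for Adra2c, Adra2b, Htr1f and Htr4 fall from D1-like to D2-like and lines for Htr2c, Hrh3 and Chrm3 rise in all 3 libraries, while those for Adrb1, Chrm1, Htr1b, Htr1d and Chrnb2 differ in direction between libraries.

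By family, summed serotonin receptors measured 290, 297 and 321 CPM in D1-like and 428, 384 and 439 CPM in D2-like cells, a gap that follows Htr2c. Alpha adrenergic receptors measured 177, 167 and 180 CPM against 63.0, 102 and 89.1 CPM, which follows Adra2c. Summed muscarinic receptors overlapped, with 225, 102 and 148 CPM in D1-like and 164, 120 and 189 CPM in D2-like cells. These sums are descriptions with no test.

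The sequence just before the annotated start is shown for 4 genes that were called between the spiny classes with or without the filter, Adra2b and Htr1f as genes higher in D1-like cells, Htr2c and Hrh3 as genes higher in D2-like cells, so that their base composition can be compared (RefSeq, GRCm38.p6). The 4 are a selection from the 6 called, and Adra2c and Chrm3 are not shown. Adra2b and Htr1f were called only without the filter. Each is written 5′ to 3′ on the gene's strand in lower case, with GC boxes (GGGCGG, or CCGCCC on the other strand) in capitals. Each window ends before the outermost start annotated in GENCODE M21 or RefSeq, so they differ in length.
Adra2b (chr2:127362929-127363178, plus strand): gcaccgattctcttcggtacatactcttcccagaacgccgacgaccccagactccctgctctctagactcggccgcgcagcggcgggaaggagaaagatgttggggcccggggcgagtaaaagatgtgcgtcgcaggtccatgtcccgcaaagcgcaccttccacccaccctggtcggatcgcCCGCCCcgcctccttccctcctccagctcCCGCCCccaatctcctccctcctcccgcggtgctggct
Htr1f (chr16:65105855-65106034, minus strand): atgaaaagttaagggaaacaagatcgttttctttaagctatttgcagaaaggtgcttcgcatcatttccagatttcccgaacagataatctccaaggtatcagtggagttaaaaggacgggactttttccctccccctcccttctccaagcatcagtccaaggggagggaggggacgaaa
Htr2c (chrX:146962263-146962463, plus strand): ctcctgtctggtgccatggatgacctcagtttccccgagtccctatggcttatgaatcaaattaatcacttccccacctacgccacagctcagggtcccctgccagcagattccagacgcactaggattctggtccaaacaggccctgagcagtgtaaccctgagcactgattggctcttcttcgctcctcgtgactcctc
Hrh3 (chr2:180104489-180104657, minus strand): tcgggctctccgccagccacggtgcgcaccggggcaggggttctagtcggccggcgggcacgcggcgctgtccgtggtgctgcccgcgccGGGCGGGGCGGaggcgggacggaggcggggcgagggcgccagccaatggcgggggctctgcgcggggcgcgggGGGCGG

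Base composition differed within each pair. Adra2b (66.0% G and C, 23 CpG dinucleotides, 2 GC boxes) and Hrh3 (82.8%, 28 CpG, 3 GC boxes) are rich in G and C, while Htr1f (45.6%, 5 CpG) and Htr2c (54.7%, 5 CpG) are near the median of 52.4% over 32851 promoters and hold no GC box. Over the 250 bases before the start, a GC box was found in 22 of 44 promoters of the 36 receptor genes with an entry and in 32.7% of all promoters. The cyclic AMP response element TGACGTCA (its own reverse complement) was found in 0 of the 44 and in 1.55% of all promoters, and the TATA box TATAAA, on either strand, in 2 of the 44 and in 12.4% of all. None of the 3 motifs contains another, and overlapping GC boxes are counted separately. A match is a description of letters, not of a site in use.

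Each of 11 classes with at least 10 cells in every library was then compared with the mean log level of the other 10. In that fit 6 receptor genes passed the filter, among them Adra2c, Htr1b, Chrm1, Hrh3 and Htr2c, giving 66 pairs of gene and class; 18 were higher and 6 lower, beside 21.8% higher and 13.1% lower (34.9% called) over all 95018 such pairs. The 6 passed the filter partly through the classes in which they are high, so these counts are descriptions. In D1-like cells 5 of the 6 were higher (30.0% of all 8638 genes were) and in D2-like cells the same 5 (31.3% of all genes). In glutamatergic cells 4 were higher, Htr2c, Chrm1, Hrh3 and Adra2c (28.9% of all genes); Adra2c lost its call there without library 3 (adjusted p = 0.148 by edgeR). In Pvalb interneurons only Hrh3 was higher (1.28, adjusted p = 0.0343 by edgeR; 13.2% of all genes), at 361, 33.9 and 50.05 CPM, and it lost its call without library 1 (0.66, adjusted p = 0.554 by edgeR) and without library 3 (adjusted p = 0.0804 by edgeR).

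In glutamatergic cells Htr2c measured 0, 208 and 150 CPM. It had no UMI in any of the 36 glutamatergic cells of library 1 (a share of up to 9.74% by the exact 95% interval) and a UMI in 61.3% and 53.0% of those in libraries 2 and 3. The class value (2.87, adjusted p = 1.02e-10 by edgeR) therefore rests on 2 libraries. Chrm1 measured 240, 90.5 and 129 CPM there, similar to spiny neurons, and Hrh3 276, 33.2 and 84.4 CPM. Htr1b, abundant in spiny neurons, measured 0, 15.1 and 4.44 CPM in glutamatergic cells, close to oligodendrocytes (0, 15.6 and 5.55 CPM).

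Without the filter 40 receptor genes entered the class fit and 59 of 440 pairs were higher and 5 lower, beside 14.2% and 5.69% of all 204578 pairs (19.9% called); the genes in the next paragraphs were named after these values were seen. D1-like cells held 12 of the 59 (21.4% of all genes were higher there), and D2-like cells 13 (21.6%). Glutamatergic cells held 15 (18.6% of all genes higher there). Chrm3 measured 48.0, 18.1 and 56.3 CPM in them, with 4, 18 and 38 UMIs, above every D1-like (0, 1.33 and 0 CPM) and D2-like value (4.20, 11.5 and 11.1 CPM), at 5.11 over the other classes (adjusted p = 4.55e-20 by edgeR without the filter). The Gi-coupled serotonin receptors Htr1a (11.996, 7.04 and 11.8 CPM, 16 UMIs) and Htr5a (24.0, 7.04 and 11.8 CPM, 17 UMIs) and the alpha-1 receptor Adra1b (24.0, 9.05 and 10.4 CPM) were also higher there.

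In the 66 Pvalb interneurons, fast-spiking inhibitory cells, 5 genes were higher without the filter (5.64% of all genes). Htr3a, the channel-forming serotonin subunit known from interneurons, had 1, 4 and 3 of its 23 UMIs there, or 40.2, 22.6 and 50.05 CPM, against 0 UMIs in all non-neuronal cells (6.21, adjusted p = 3.25e-05 by edgeR without the filter). Adra1a measured 40.2, 22.6 and 16.7 CPM on 6 UMIs and Chrm2, the M2 muscarinic receptor, 40.2, 16.97 and 16.7 CPM on 5 UMIs. With 12, 43 and 11 cells, 3 UMIs over the class correspond to 11.5 CPM, and single libraries rest on 1 to 4 UMIs.

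Outside neurons, microglia were examined next. Adrb1 measured 0, 19.6 and 44.4 CPM in microglia on 16 UMIs and passed without the filter (2.38, adjusted p = 0.000476 by edgeR), with no UMI in library 1. Htr2b (7.20, 7.37 and 16.6 CPM, 7 UMIs) and Hrh2 (7.20, 4.91 and 0 CPM, 3 UMIs) passed in microglia as well; the Hrh2 value is at the 3-UMI level of 4.13 CPM, and Htr2b overlaps exons of Psmd1 on the opposite strand. Of all genes 12.1% were higher in microglia without the filter.

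Astrocytes respond to noradrenaline and histamine. Of the 40 genes of the set tested without the filter, 6 were higher in them, the antisense RNA Chrna1os included. Over all 18598 genes 20.8% were higher there, so the count is a description and not a result about the set. Hrh1 measured 12.2, 13.7 and 21.7 CPM in astrocytes against 3.76, 2.39 and 0.693 CPM in oligodendrocytes, and the groups did not overlap (3.03 over the other classes, adjusted p = 1.11e-08 by edgeR without the filter). Astrocytes held 45 of the 57 Hrh1 UMIs outside neurons. Neurons held 126 of all 183, at 15.6, 7.81 and 10.6 CPM, which overlaps the astrocyte values. Adra1a measured 6.96, 6.505 and 3.83 CPM in astrocytes and 0 UMIs in oligodendrocytes, precursors, microglia, endothelial and mural cells (3.84, adjusted p = 0.000104 by edgeR without the filter). Adrb1 measured 5.22, 9.76 and 29.4 CPM, with library 3 above the others and overlapping the neuronal values. Adra2a and Htr6 passed on 10 and 11 UMIs.

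The antisense RNA Chrna1os measured 10.4, 7.16 and 7.67 CPM in astrocytes and 1.88, 1.80 and 0.693 CPM in oligodendrocytes (3.76, adjusted p = 1.16e-05 by edgeR without the filter). It had 53 UMIs, never more than 1 in a cell, while Chrna1 itself, the muscle-type alpha subunit, had 2 UMIs in all.

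Channel subunits appeared in further classes. Chrnb1, the muscle-type beta subunit, had 15 of its 25 UMIs in endothelial cells, at 19.6, 4.67 and 28.7 CPM, against 0, 0.395 and 0.320 CPM in neurons (5.19, adjusted p = 8.58e-07 by edgeR without the filter; 14.5% of all genes were higher). Chrna4 had 0, 4 and 7 UMIs in 28, 69 and 36 oligodendrocyte precursors, at 0, 40.6 and 63.9 CPM, and 0 UMIs in 1482 oligodendrocytes, where 3 cells with a UMI would make 0.202% and 3 UMIs 0.823 CPM (4.31, adjusted p = 5.85e-06 by edgeR without the filter; 5.01% of all genes were higher in precursors). The precursor value rests on 2 libraries, and the 28 cells of library 1 allow a share of up to 12.3% by the exact 95% interval.

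**Figure D4:**
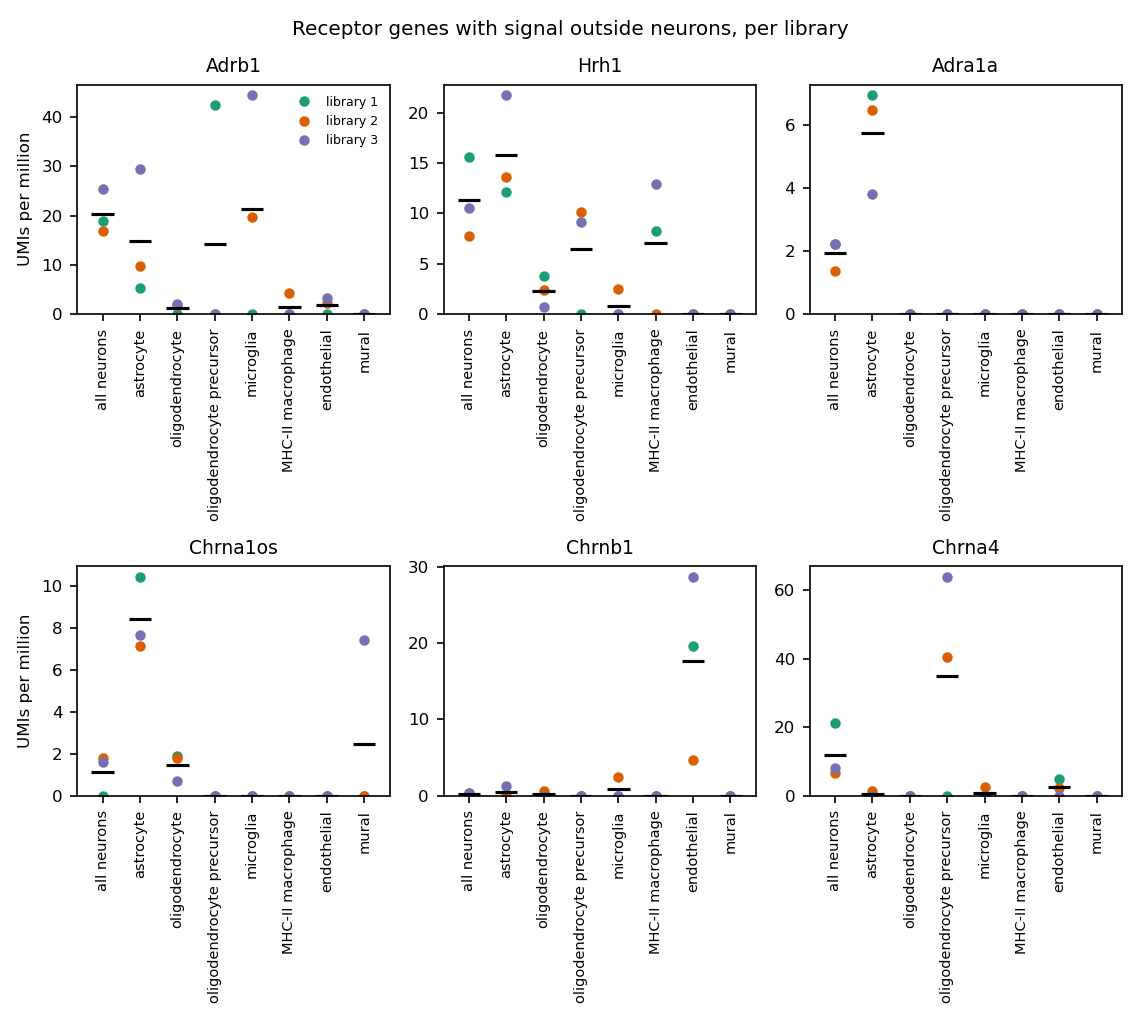
CPM of 5 receptor genes and the antisense RNA Chrna1os in neurons and 7 non-neuronal classes; each point is 1 library and each bar the mean of 3. By mean of the classes shown, Chrna1os and Adra1a are highest in astrocytes, Chrnb1 in endothelial cells (19.6, 4.67 and 28.7), and Chrna4 in oligodendrocyte precursors of libraries 2 and 3 (40.6 and 63.9), with none in those of library 1.

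With the filter, 6 of the pairs were lower: Hrh3 and Chrm1 in astrocytes (14.6% of all genes were lower there), Htr2c and Htr1b in endothelial cells (15.9%), Adra2c in mural cells (8.43%) and Hrh3 in oligodendrocytes (16.1%). In the 301 mural cells Adra2c was at 0 in all 3 libraries, where 3 UMIs would make 7.30 CPM, while the mean of the other 10 classes was 32.8, 40.7 and 32.8 CPM.

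The remaining receptor genes were near or under the limit of detection. With 3 UMIs as the limit, all gated cells together reach 0.127 CPM, and 3 cells make a share of 0.0319%. These limits and the intervals above cover counting error only. No UMI was found for Adra1d, Chrna6, Chrna9, Chrnb3, Chrnd, Chrng and Hrh4, of which Chrna6 and Chrnb3 are known from midbrain dopamine neurons and Chrnd and Chrng from muscle. In neurons 3 UMIs of a gene make 0.212 CPM. For Hrh4 and Adra1d the RefSeq gene runs 819 and 493 bases past the 3′ end of the GENCODE M21 model, as it does by 6450 bases for Htr4 and 1402 for Htr6, so a limit there holds for the model and not for RNA that ends beyond it. A further 12 genes had 1 to 9 UMIs, among them Chrna3, Chrnb4, Htr3b and Htr5b. Htr2a, the Gq-coupled receptor known from cortex, had 17 UMIs and measured 2.23, 0.692 and 1.92 CPM in neurons; Chrna7, the homomeric nicotinic subunit, had 15 and measured 1.12, 1.09 and 0.640 CPM.

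Chrm4, the Gi-coupled M4 muscarinic receptor known from D1 spiny neurons, had 1 UMI, in a D1-like cell of library 3, and Chrm5 had 1 UMI. In GENCODE M21 both models end at the stop codon. The Chrm4 model spans chr2:91927249-91928688, a length of 1440 bases, and the RefSeq gene runs 1147 bases further in the 3′ direction; for Chrm5 it runs 438 bases further. The other 46 coding models reach past the stop codon, with a median of 30 UMIs (range 0 to 2018). The libraries tag 3′ ends, and which annotation release the authors counted with is not given in the sources used here. The part of the gene models in these 2 low counts was not tested, so the levels of Chrm4 and Chrm5 are not interpretable here.

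Neurons with at least 1 mCherry UMI (44, 687 and 98 cells) were compared with neurons with none (691, 2768 and 769), which asks whether FLiCRE-labelled neurons differ in receptor genes. Of the 15 receptor genes tested, 0 were called, 0 had an unadjusted p under 0.05 and 0 were called by DESeq2; over all 10433 genes edgeR called 0.0479%, and without the filter 0.175% of genes and 0 receptor genes. The log2 differences, labelled minus unlabelled, ran from -0.49 for Hrh1 to 0.74 for Adra2a, with a median of 0.0038 beside 0.0050 over all genes. Htr2c had the lowest p, with 106, 105 and 149 CPM in labelled and 201, 134 and 145 CPM in unlabelled neurons (-0.25, SE 0.124, adjusted p = 0.835 by edgeR). Adra2c measured 92.7, 98.0 and 94.3 CPM against 107, 116 and 110 CPM, the only one of the 15 whose groups did not overlap (-0.21, SE 0.109, adjusted p = 0.835 by edgeR). The share of all genes without overlap was not counted here either. Labelled neurons were deeper, with a median of 1517, 3341 and 4732 UMIs against 1072, 2404 and 2472, and more often D1-like (20.5%, 45.6% and 43.9% against 10.9%, 31.2% and 22.2%) and glutamatergic (13.6%, 6.11% and 13.3% against 4.34%, 4.73% and 9.10%). The part of depth and of class in these values was not tested, except that 0 were also called among D1-like and D2-like neurons alone. A label of 1 UMI may include stray mCherry RNA, and its part was not tested, so 0 calls do not show equal levels.

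Other genes of these transmitter systems were followed with 2 lists. Of 28 genes for making, transporting and clearing the ligands, 7 were tested between D1-like and D2-like cells and 0 were called (median log2 difference 0.13). Of 19 genes for receptor accessory proteins and desensitisation, 11 were tested and 2 were called, both higher in D1-like cells (median 0.05), beside 3.04% of all genes called and 1.63% higher in D1-like cells. Rgs4, which shortens Gi and Gq signals, measured 539, 636 and 582 CPM in D1-like and 340, 423 and 433 CPM in D2-like cells (0.53, SE 0.083, adjusted p = 2.99e-07 by edgeR), with no overlap. Ly6h, a modulator of nicotinic receptors, measured 748, 889 and 585 CPM against 546, 792 and 434 CPM (0.28, SE 0.0797, adjusted p = 0.0192 by edgeR), overlapping between libraries but higher in D1-like cells of each. Between neurons and other cells, where 66.3% of all genes were called (31.4% higher and 34.9% lower in neurons), 11 of 12 tested ligand genes were called, 4 higher and 7 lower, and 14 of 16 accessory genes, 9 higher and 5 lower. Between labelled and unlabelled neurons 0 of 9 and 0 of 15 were called.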

How the data were processed

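The deposited values are whole-number UMI counts per gene and cell from the 10x Genomics 3′ v2 kit, which the authors made with Cell Ranger 3.0 on mm10, per the submitters' processing notes (3.0.0 per the file headers). They form 1 pooled matrix of 28001 features and 11625 cells. The barcode suffix separates 3 libraries, and nothing ties a suffix to a numbered sample. Nothing says whether the libraries came from separate animals, so p-values hold for these libraries only. With the library as block, they measure how far a difference between classes varied from library to library, not the spread of levels between libraries. The fit also draws each gene's spread toward that of other genes. Between D1-like and D2-like cells, with only 3 libraries, very small p-values rest largely on that shared spread and not on 1 gene's own variation.

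Barcodes were kept if they had 300 or more genes and a mitochondrial share of UMIs no higher than 20%. Classes were rebuilt here: a cell took the class with the highest share of its markers detected (at least 3). D1-like and D2-like neurons needed 2 of their own markers, more than of the other, and 3 spiny neuron markers. Neuropeptide markers counted from 3 UMIs, a threshold set after peptide RNA was seen in oligodendrocytes. Tac3, Trac, Trbc2 and Gpr52 are not among the features used here. Doublets were scored with Scrublet (scanpy 1.11.5), whose threshold marked 57, 2 and 17 cells and so did not work in library 2; all stayed in, and removing 44, 296 and 28 cells by rate was an alternative.

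Counts were summed per library and class and tested with edgeR 4.0.16 (TMM, filterByExpr, robust quasi-likelihood, library as block, Benjamini-Hochberg at 0.05) on all genes. The block follows from the design, since the classes compared come from the same library. The fit was tried on simulated counts with the same spread for every gene, no library differences beyond depth and no stray RNA. That trial therefore does not bear on differences between libraries or on stray RNA in these data. DESeq2 1.42.0, RLE scaling, no filter, default prior, no block, leaving out libraries, deeper cells, a stricter gate and doublet removal were alternatives. Shares carry exact Clopper-Pearson 95% intervals; 3 libraries allow no exact p below 0.25 (two-sided sign-flip). Named are all receptor genes that passed and all with at least 100 UMIs, except 1 gene that is not reported here but is included in counts over the set; pathway genes are named if they passed between D1-like and D2-like cells. The members and lists were chosen with earlier results of these data known. Promoters are RefSeq's (GRCm38.p6).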

Additional observations from a re-analysis of the deposited data

Results flagged for a closer look

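Some classes were too small or too uneven over libraries to be tested, and in them 8 pairs of gene and class stood above the 3-UMI level and at least at 2 times the highest tested class; no test was made. Among 71 neurons with Tshz1 and Pcdh8, Hrh1 measured 36.1 CPM (0, 2 and 7 UMIs, where 3 UMIs make 12.03 CPM; astrocytes, the highest tested class, 15.5) and Adra2a 32.1 CPM (0, 1 and 7 UMIs; glutamatergic cells 10.8). Most of those UMIs came from library 3. Among 48 Sst-Npy interneurons, Chrm2 measured 67.2 CPM (1, 3 and 9 UMIs in 9 cells, where 3 UMIs make 15.5; Pvalb interneurons 19.1) and Htr1a 20.7 CPM (0, 3 and 1 UMIs; glutamatergic cells 9.13).

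The 9 cholinergic interneurons all came from library 2, and their median of 11694 UMIs was the highest of any class. Chrm2, a muscarinic autoreceptor of cholinergic cells, measured 114 CPM in them (11 UMIs in 6 cells), Htr1a 104 CPM (10 UMIs in 5 cells) and Hrh1 51.9 CPM (5 UMIs in 2 cells), where 3 UMIs make 31.2 CPM. Among 62 fibroblasts Adra2a measured 34.2 CPM (0, 4 and 1 UMIs in 5 cells, where 3 UMIs make 20.5).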

How the results depend on the processing

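The count of receptor genes called between D1-like and D2-like cells moved from 3 to 6 without the low-count filter and to 0 without the library as replicate block; leaving out a library gave 0 to 6, with 0 without library 3 and 6 without library 1. Pairs higher in a class moved from 18 to 59 without the filter and ran from 16 to 35 when a library was left out, with 35 without library 1. The filter changes which genes are tested, and so does leaving out a library. Shares of all genes called were counted only for the main setting and without the filter. The other moves are therefore not read as results about the receptor genes, and their cause was not tested. The median share of neurons with a UMI over the 13 genes with at least 100 UMIs fell from 6.19% to 2.84% when cells were thinned to 1000 UMIs. Between D1-like and D2-like cells 2 uncalled genes changed sign: Chrnb2 to 0.073 under DESeq2, 0.067 with no replicate block, 0.25 with a stricter gate and 0.065 with neuropeptide markers counted from 1 UMI (added after the data were seen), running from -0.23 to 0.38 when a library was left out, and Htr1b to 0.085 with the stricter gate, running from -0.36 to 0.015 when a library was left out. Of 511 values of single genes, 478 kept direction and side of the threshold and 26 lost a call, 7 of them without library 3 and 4 without the block. The count for neurons over other cells stayed between 12 and 21 and that for labelled neurons at 0. Low counts limit 29 genes with 1 to 99 UMIs.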
